A study of Mus musculus with 6 samples.

Results

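The forkhead family of transcription factors was examined without its best known member in clear cells, Foxi1. The genes were all rows of the deposited RPKM table whose symbol begins with Fox, a subfamily letter from a to s and a digit, leaving out Foxi1. This rule took 44 of the 37578 genes in the table, in 19 subfamilies, of which 1 row (Foxl2os) is by its name an opposite-strand transcript and no forkhead gene. The libraries were made from clear cells, the proton-secreting epithelial cells of the epididymis, isolated by repeated sorting for EGFP. They came from caput, corpus or cauda, which follow each other along the duct, of untreated transgenic mice aged 12 weeks. In these B1 V ATPase - EGFP mice the ATP6V1B1 promoter drives EGFP, all 3 groups carry the transgene, and the regions differ in nothing else that the labels give. There were 2 libraries per region and each pooled 12 epididymides. Nothing in the labels says whether the pools of a region came from separate mice, so p-values measure the spread between these libraries, which may be technical. The 6 libraries held 18887128 to 24700717 reads in genes.

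Forkhead proteins share a winged-helix domain that binds DNA, and the letter in a gene's name marks its subfamily. Foxi1 is the factor that specifies proton-secreting epithelial cells in the epididymis, kidney and inner ear. The FOXO factors are switched off by insulin and PI3K-AKT signalling, which moves them out of the nucleus, FOXP factors are repressors that act as dimers, and FOXA factors open closed chromatin. Other members are tied to one cell type, such as Foxj1 to cells with motile cilia and Foxp3 to regulatory T cells. The questions here were which members clear cells transcribe at all, and how those differ along the duct.

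Of the 44 genes, 10 were expressed, taken as a mean of at least 1 RPKM (reads scaled to gene length and library size, as deposited) in at least one region. They were Foxj2, Foxj3, Foxk1, Foxk2, Foxn3, Foxo1, Foxo3, Foxp1, Foxp4 and Foxq1, from 6 subfamilies. A further 12 were low, with 10 or more reads over the 6 libraries but a lower mean, 14 had a trace of 1 to 9 reads, and 8 had no read. Foxj3 was the lowest inside the threshold with a caput mean of 1.74 RPKM, and Foxc1 the highest outside it with 0.941 RPKM. Foxj3, Foxk1 and Foxq1 reached it in caput alone, so they entered through the region where they were high, and counts over the 10 genes are given as description. The other 7 were above 1 RPKM on average in every region. The expressed genes held 88.6% to 96.4% of the RPKM summed over the 44.

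**Figure D1:**
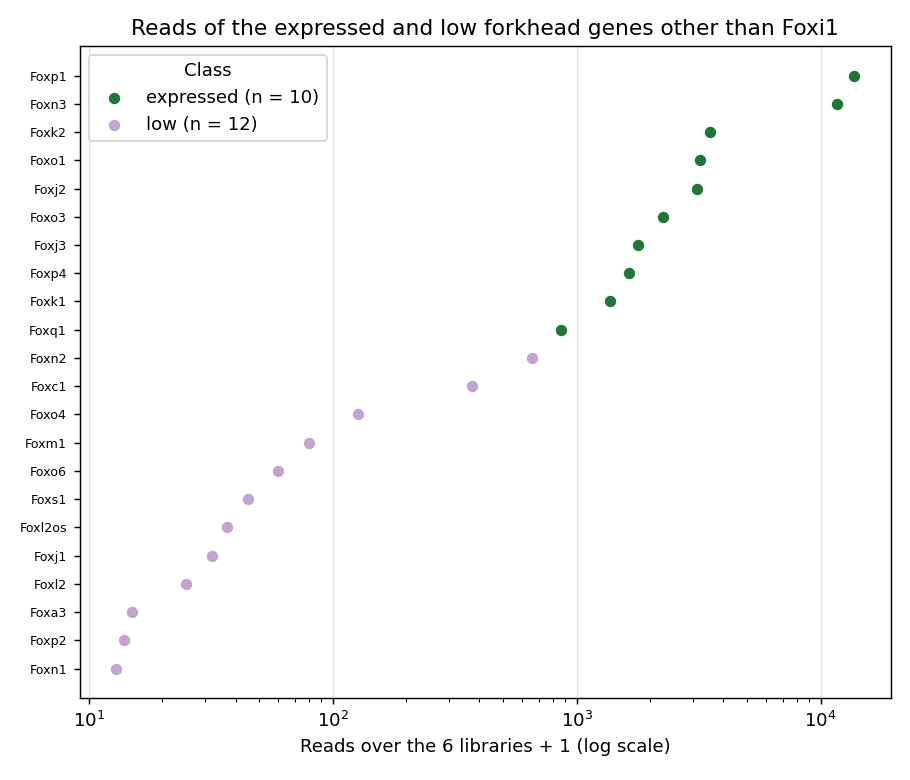
Reads of each of the 10 expressed and 12 low forkhead genes summed over the 6 libraries, plus 1, on a log axis, coloured by class. Foxc1 and Foxn2, with 372 and 655 reads, have the most reads among the low genes.

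Set beside Foxi1, all of these genes together were the smaller share of forkhead RPKM in every library. Foxi1 (ENSMUSG00000047861) measured 1053.4 and 946 RPKM in the caput libraries, 161.1 and 162.1 in corpus, with 63 and 84.9 in cauda. The 44 others summed to 67.9 and 62.6 RPKM in caput, 31.3 and 29 in corpus, with 24.8 and 25.9 in cauda. Foxi1 thus made up 93.9% and 93.8% of forkhead RPKM in caput, 83.7% and 84.8% in corpus, with 71.8% and 76.7% in cauda. The share of the others was lowest in caput although their summed level was highest there. Reads assigned to the 44 genes came to 16882 and 13855 in caput, 3808 and 4022 in corpus, with 2925 and 3187 in cauda, so counts are thinnest in the distal libraries.

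Upstream sequence was read for the expressed genes to show what kind of promoter they have. A window of the 250 bases before the RefSeq start (build GRCm38.p6, while the counts were made on mm9) was found for 8 of the 10, with 3 starts for Foxp1, 10 windows in all; none was at hand for Foxk1 and Foxq1. The windows were rich in G and C, with a median of 71.8% and a range of 45.2% to 80.4%, against a median of 52.4% over all 32851 windows of the table. Windows of 5 genes are printed 5′ to 3′ on the strand of the gene, with the letters TGTTT, or AAACA on the other strand, in capitals because they are the core that forkhead domains bind. Those of Foxp1, Foxo1 and Foxn3 belong to genes higher in caput, and those of Foxo3 and Foxk2 to genes that did not pass the test between regions. Of the 3 Foxp1 windows, those at chr6:99520994-99521243 and chr6:99266516-99266765 (minus strand) are shown, with that of Foxo1 at chr3:52268087-52268336 (plus), that of Foxn3 at chr12:99450075-99450324 (minus), that of Foxo3 at chr10:42276696-42276945 (minus) and that of Foxk2 at chr11:121259737-121259986 (plus).
Foxp1 start 1: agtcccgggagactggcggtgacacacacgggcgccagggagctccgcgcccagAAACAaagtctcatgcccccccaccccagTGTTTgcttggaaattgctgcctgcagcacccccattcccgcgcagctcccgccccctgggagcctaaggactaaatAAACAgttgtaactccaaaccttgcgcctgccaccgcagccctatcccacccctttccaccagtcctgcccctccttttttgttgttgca
Foxp1 start 2: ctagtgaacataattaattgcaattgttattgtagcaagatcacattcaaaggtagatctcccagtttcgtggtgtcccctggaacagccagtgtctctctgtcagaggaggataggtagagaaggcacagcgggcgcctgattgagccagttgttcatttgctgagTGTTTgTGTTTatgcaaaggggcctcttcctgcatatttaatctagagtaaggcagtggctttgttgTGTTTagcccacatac
Foxo1: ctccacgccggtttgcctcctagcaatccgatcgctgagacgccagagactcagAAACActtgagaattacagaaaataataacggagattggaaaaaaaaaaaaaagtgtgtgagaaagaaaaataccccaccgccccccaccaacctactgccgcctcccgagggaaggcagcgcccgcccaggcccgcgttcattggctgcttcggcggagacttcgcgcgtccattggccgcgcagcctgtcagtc
Foxn3: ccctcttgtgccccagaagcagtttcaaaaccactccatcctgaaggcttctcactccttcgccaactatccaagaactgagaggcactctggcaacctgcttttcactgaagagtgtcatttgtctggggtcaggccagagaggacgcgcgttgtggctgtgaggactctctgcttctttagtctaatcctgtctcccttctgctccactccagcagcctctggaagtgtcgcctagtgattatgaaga
Foxo3: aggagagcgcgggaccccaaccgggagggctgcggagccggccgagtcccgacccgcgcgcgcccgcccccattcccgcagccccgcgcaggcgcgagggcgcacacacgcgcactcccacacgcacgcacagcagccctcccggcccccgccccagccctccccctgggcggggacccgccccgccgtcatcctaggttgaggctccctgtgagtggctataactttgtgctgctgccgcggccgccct
Foxk2: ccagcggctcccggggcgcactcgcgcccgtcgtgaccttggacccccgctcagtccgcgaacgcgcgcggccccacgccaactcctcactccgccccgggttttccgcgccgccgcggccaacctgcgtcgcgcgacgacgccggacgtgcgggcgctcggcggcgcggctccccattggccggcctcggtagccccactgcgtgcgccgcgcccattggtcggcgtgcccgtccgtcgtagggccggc
The core was present in 5 of the 10 windows, namely those of Foxj3, Foxo1 and the 3 starts of Foxp1, and in 46.4% of all windows. It was not found in the windows of Foxj2, Foxn3 and Foxp4, which were also higher in caput than in cauda, nor in those of Foxk2 and Foxo3. The longer forms were TGTTTAC, found in 0 of the 10 and 3.17% of all windows, and TGTTTGC, found in 2 of the 10 and 4.3% of all windows, both counted on either strand and both containing the core. A match describes the letters only.

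Most expressed members were higher in caput than in cauda. Foxp1 rose most, 5.95-fold, then Foxq1 (5.77-fold), Foxn3 (3.66-fold), Foxk1 (3.51-fold), Foxp4 (3.07-fold), Foxj3 (2.31-fold), Foxo1 (2.26-fold) and Foxj2 (1.95-fold). These 8 of 10 passed at an adjusted p under 0.05 in the quasi-likelihood test of edgeR, adjusted by Benjamini and Hochberg's method across the 15816 genes tested, where 33.9% of genes were called higher in caput, 33% lower and 66.9% in either direction. Between caput and corpus 7 of the 10 were called higher in caput, all of the above but Foxj2 (33.2% of all genes, with 31.8% lower and 65% in either direction). Between corpus and cauda 2 were called, Foxj2 and Foxp1, both higher in corpus (17.3% of all genes, 35.4% in either direction). Called between any of the regions were 8 of the 10, and 75.1% of all genes. Foxj3, Foxk1 and Foxq1 had entered the 10 through caput alone, so all of these counts are description. Among the genes above 1 RPKM in every region, Foxp1, Foxn3, Foxp4, Foxo1 and Foxj2 were called between caput and cauda. Foxk2 and Foxo3 were not. The comparisons share libraries, and fewer cells of a type and less RNA per cell cannot be told apart in such pools. Scaling matters for the sizes: by library totals in place of TMM the median fold change of all genes between caput and cauda moved from 0.04 to 0.9 on the log2 scale, and these 8 genes stayed called higher in caput under each of the 15 alternatives run.

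**Figure D2:**
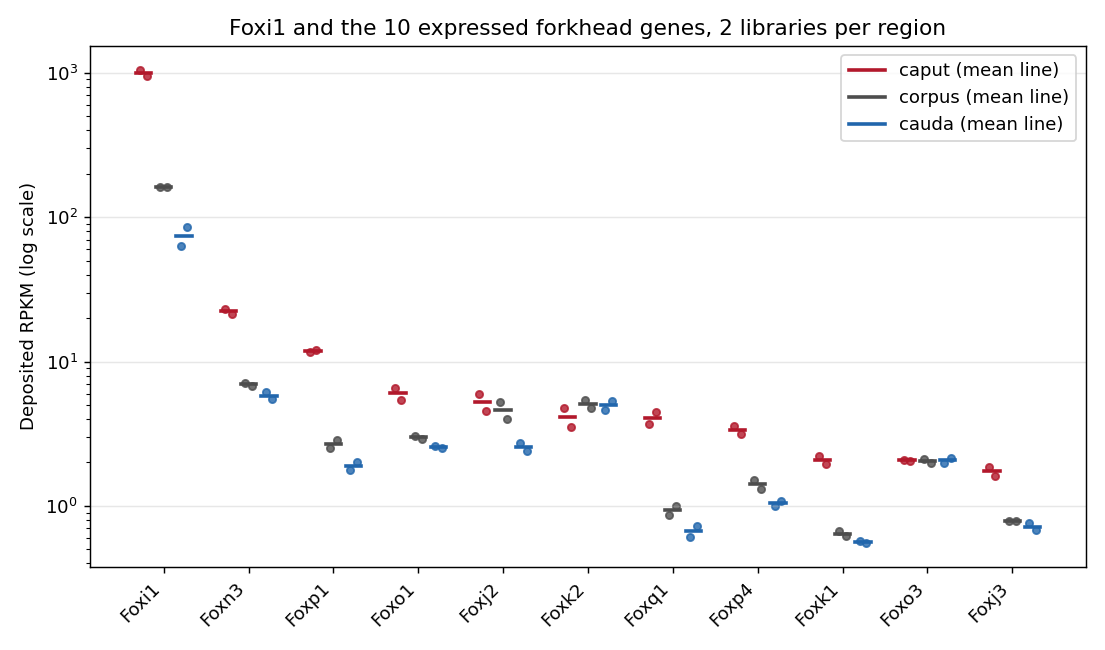
Deposited RPKM on a log axis for Foxi1 and the 10 expressed forkhead genes, with a point per library, a line at the mean of the 2 libraries of a region, and colour for region. Foxn3 stands highest among the 10, with 23.2 and 21.3 RPKM in caput, and Foxo3 lies between 1.98 and 2.15 RPKM in all 6 libraries.

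The FOXP factors were led by Foxp1. Foxp1 (ENSMUSG00000030067), a repressor needed in B cell, lung and heart development, measured 11.6 and 12 RPKM in caput, 2.51 and 2.88 in corpus, with 1.78 and 2 in cauda. No library of one region reached into another, and the order was caput, corpus, cauda. Such separation was common, since 84.2% of the 15816 genes tested did not overlap between caput and cauda. The shares were 69.5% between corpus and cauda and 83.2% between caput and corpus. The log2 fold change of Foxp1 was 2.57 ± 0.1 (SE) for caput against cauda (adjusted p = 4.37e-08), 2.06 ± 0.1 for caput against corpus (adjusted p = 1.83e-07) and 0.51 ± 0.1 for corpus against cauda (adjusted p = 0.00403). Foxp1 was thus called in all 3 comparisons. Foxp4 (ENSMUSG00000023991), a relative expressed in lung and gut epithelium, measured 3.56 and 3.15 RPKM in caput, 1.52 and 1.32 in corpus, with 0.999 and 1.08 in cauda. The regions were again apart, and caput was higher by 1.62 ± 0.16 log2 than cauda (adjusted p = 1.68e-05) and by 1.18 ± 0.16 than corpus (adjusted p = 0.000138). The step from cauda to corpus, 0.44 ± 0.17, did not pass (adjusted p = 0.0693). Foxp2, known from brain and lung, had 13 reads in all and a highest region mean of 0.0147 RPKM, and Foxp3 had 1 read.

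Foxn3 was the most abundant member per length. Foxn3 (ENSMUSG00000033713), a repressor linked to cell cycle checkpoints, measured 23.2 and 21.3 RPKM in caput, 7.13 and 6.75 in corpus, with 6.14 and 5.47 in cauda. Its caput level lay at the 89.9th percentile of genes with a read. Both caput libraries were far above the other 4, while corpus and cauda lay close together. The log2 fold change was 1.87 ± 0.09 against cauda (adjusted p = 1.45e-07) and 1.62 ± 0.09 against corpus (adjusted p = 4.39e-07), and 0.25 ± 0.09 for corpus against cauda (adjusted p = 0.0609). Its relative Foxn2 (ENSMUSG00000034998), a low member, ran the other way at 0.48 and 0.381 RPKM in caput, 0.944 and 0.865 in corpus, with 0.778 and 0.68 in cauda. Foxn2 fell to -0.82 ± 0.23 log2 in caput against cauda (adjusted p = 0.011) and -1.13 ± 0.23 against corpus (adjusted p = 0.00196). Under library totals these were 0.03 (adjusted p = 0.902) and -0.54 (adjusted p = 0.0589). The cauda call was also lost in the limma fit of log2(RPKM + 0.5) and without the first cauda library. Foxn1, the factor of thymic epithelium and hair, had 12 reads, and Foxn4 had 2.

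Among the FOXO factors, Foxo1 and Foxo3 differed in pattern. Foxo1 (ENSMUSG00000044167), a regulator of metabolism and cell survival under insulin signalling, measured 6.61 and 5.46 RPKM in caput, 3.03 and 2.93 in corpus, with 2.6 and 2.5 in cauda. Caput was higher by 1.18 ± 0.13 log2 than cauda (adjusted p = 3.38e-05) and by 0.95 ± 0.13 than corpus (adjusted p = 0.000141), and corpus and cauda differed by 0.22 ± 0.13 (adjusted p = 0.239). Foxo3 (ENSMUSG00000048756), a partner in stress resistance and cell death, measured 2.08 and 2.06 RPKM in caput, 2.1 and 1.98 in corpus, with 1.98 and 2.15 in cauda. Its libraries overlapped between all regions, and the difference between caput and cauda was -0.06 log2 with a 95% interval of -0.34 to 0.23 (adjusted p = 0.699). That level rests on the scaling: by library totals Foxo3 was called higher in caput by 0.8 log2 against cauda and 0.55 against corpus, and with the gene length trend removed it was called lower by -0.45 and -0.38.

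The remaining FOXO genes were low. Foxo4 measured 0.165 to 0.414 RPKM over the 6 libraries and was called in no comparison (adjusted p between 0.176 and 0.691). Foxo6, known from brain and liver, had 24 and 22 reads in caput, 9 and 3 in corpus, with 0 and 1 in cauda. Caput thus held 25.8 times the cauda level by scaled reads, with a 95% counting interval of 4.4 to 1040 (adjusted p = 0.00471, and 0.0587 without the first cauda library). Foxo6 and Foxn2 were called in opposite directions between caput and cauda, but both at levels below 1 RPKM.

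The FOXK pair also parted. Foxk1 (ENSMUSG00000056493) and Foxk2 (ENSMUSG00000039275) are broadly expressed repressors of autophagy and metabolic genes that carry a forkhead-associated domain beside the forkhead. Foxk1 measured 2.2 and 1.95 RPKM in caput, 0.668 and 0.614 in corpus, with 0.575 and 0.553 in cauda, and caput was higher by 1.81 ± 0.17 log2 than cauda (adjusted p = 1.12e-05) and by 1.63 ± 0.17 than corpus (adjusted p = 2.38e-05). Foxk2 measured 4.75 and 3.52 RPKM in caput, 5.41 and 4.74 in corpus, with 4.6 and 5.34 in cauda, with overlap between all regions. Its log2 difference was -0.33 (95% interval -0.68 to 0.02, adjusted p = 0.0866) between caput and cauda and -0.36 between caput and corpus (adjusted p = 0.0691). Foxk2 was called lower in caput than in cauda without the first caput library (-0.55, adjusted p = 0.0119) and with the length trend removed (-0.71), and higher by 0.52 under library totals. In cauda and corpus Foxk2 was the more abundant of the pair by far, in caput by less.

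FOXJ and FOXQ genes gave further patterns. Foxj2 (ENSMUSG00000003154), a broadly expressed activator, measured 5.94 and 4.55 RPKM in caput, 5.22 and 3.97 in corpus, with 2.72 and 2.42 in cauda. Here caput and corpus overlapped and cauda stood below both, by 0.96 ± 0.17 log2 against caput (adjusted p = 0.000934) and 0.83 ± 0.18 against corpus (adjusted p = 0.00555), a call lost without the first corpus library (adjusted p = 0.0564) or the second cauda library (adjusted p = 0.0629). Foxj3 (ENSMUSG00000032998), which is known to act in male germ cell meiosis and in muscle, measured 1.85 and 1.62 RPKM in caput, 0.783 and 0.783 in corpus, with 0.762 and 0.676 in cauda. It was higher in caput by 1.21 ± 0.15 log2 than in cauda (adjusted p = 7.94e-05) and by 1.09 ± 0.15 than in corpus (adjusted p = 0.000167). Foxq1 (ENSMUSG00000038415), an epithelial factor whose loss gives mice a satin coat and alters stomach mucin, measured 3.68 and 4.44 RPKM in caput, 0.869 and 0.997 in corpus, with 0.613 and 0.728 in cauda. Its caput level was higher by 2.53 ± 0.24 log2 than cauda (adjusted p = 1.31e-05) and by 2.06 ± 0.24 than corpus (adjusted p = 4.71e-05), while corpus and cauda differed by 0.47 ± 0.26 (adjusted p = 0.194).

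**Figure D3:**
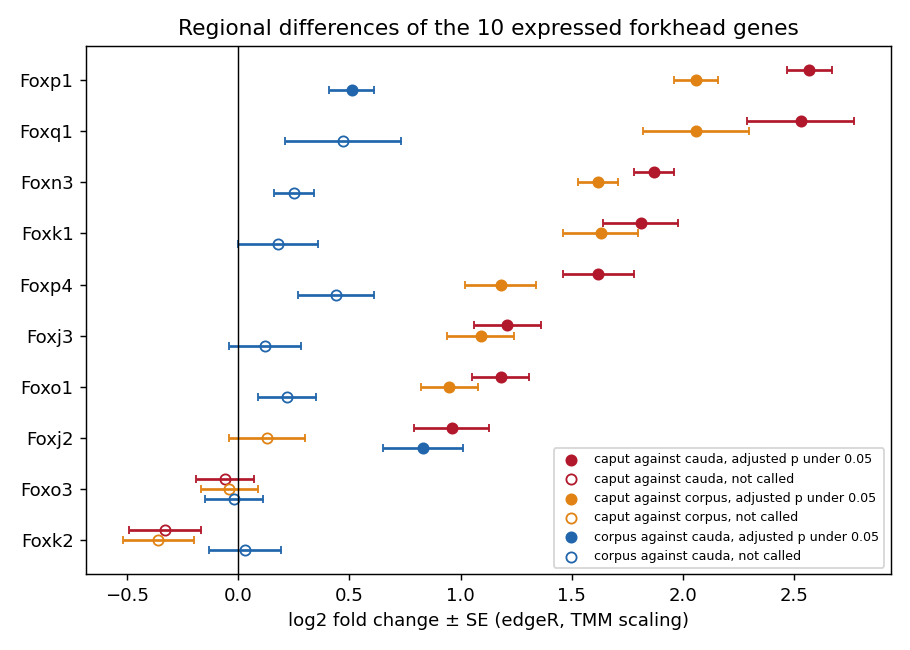
log2 fold changes with SE bars from edgeR for the 10 expressed genes in the 3 comparisons, positive where the first region is higher, with filled points for an adjusted p under 0.05. The caput comparisons of 7 genes lie between 0.95 and 2.57, and Foxj2 has a corpus value (0.83 against cauda) near its caput value (0.96).

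Because a ratio of genes within 1 library does not depend on the scaling between libraries, related members were also set against each other. Foxk1 over Foxk2 in RPKM was 0.463 and 0.554 in caput, 0.123 and 0.13 in corpus, with 0.125 and 0.104 in cauda. Foxo1 over Foxo3 was 3.17 and 2.64 in caput, 1.44 and 1.48 in corpus, with 1.31 and 1.16 in cauda. Foxp1 over Foxp4 was 3.26 and 3.8 in caput, 1.65 and 2.18 in corpus, with 1.78 and 1.85 in cauda. In each of these pairs the caput libraries lay above the other 4, so the members changed unequally between caput and the rest of the duct. Foxn3 over Foxn2 was 48.3 and 55.9 in caput against 7.54 to 8.04 in the other 4 libraries. Foxj3 over Foxj2 was lowest in corpus, at 0.15 and 0.197, against 0.312 and 0.356 in caput and 0.28 and 0.279 in cauda. With 2 libraries a region, an exact two-sided permutation test between caput and cauda cannot go below p = 0.333, the value each of these 5 ratios gave. Foxi1 over Foxp1 fell along the duct as well and was 90.7 and 79.2 in caput, 64.2 and 56.2 in corpus, with 35.5 and 42.4 in cauda.

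**Figure D4:**
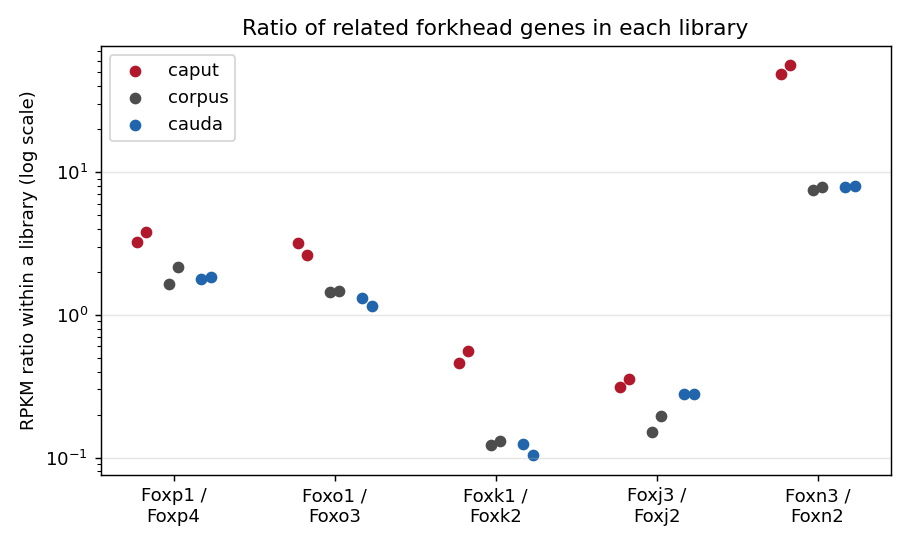
Ratio of the RPKM of related forkhead genes in each of the 6 libraries, on a log axis, coloured by region. Caput lies above the other regions for every ratio drawn, and Foxn3 over Foxn2 has the widest gap, 48.3 and 55.9 against 7.54 to 8.04.

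Foxc1 was low but well detected, while the FOXA genes had few reads or none. Foxc1 (ENSMUSG00000050295), a factor of eye and vessel development, measured 0.878 and 1 RPKM in caput, 0.416 and 0.475 in corpus, with 0.488 and 0.538 in cauda. It was called higher in caput than in cauda (0.81 ± 0.3 log2, adjusted p = 0.038) and than in corpus (1.01 ± 0.3, adjusted p = 0.0152). The cauda call did not hold in 8 of its 15 alternatives, with an adjusted p of up to 0.147, and the corpus call did not hold without the second caput library (adjusted p = 0.0518), the first corpus library (0.0859) or the second corpus library (0.0508). Foxa1, a pioneer factor of prostate and breast epithelium, had 6 reads in all, 5 of them in the second cauda library. Foxa2, which is central to liver, lung and gut, had no read, and Foxa3 had 14.

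Members tied to particular cell states were barely present. Foxj1, the master factor of motile cilia, had 18 and 10 reads in caput, none in corpus, with 1 and 2 in cauda, which is 0.209 and 0.133 RPKM at most. Its caput level was at least 5.53-fold higher than in corpus against a floor of 3 reads over the region (adjusted p = 0.00522, and 0.0509 without the second corpus library). Against cauda the ratio was 5.23 with a 95% counting interval of 1.62 to 26.9 (adjusted p = 0.0466, lost in 8 of 12 alternatives). Of 30 listed genes of Foxj1 and motile cilia 24 were in the table and 14 tested: 6 were higher and 5 lower in caput than in cauda, with a median of 0.74 against 0.04 over all genes. Those with the smallest adjusted p were Rsph1 (-2.85 ± 0.12 log2, adjusted p = 5.57e-08) and Ccno (-3.44 ± 0.17, adjusted p = 1.67e-07), lower in caput, and the tubulin gene Tuba1a (1.88 ± 0.11, adjusted p = 3.38e-07), higher there. Between caput and corpus 5 of the list were higher and 7 lower in caput (33.2% and 31.8% of all genes). The median there was -1.04 against 0.04 over all genes. Levels within this list were uneven. Rsph1 and Ccno reached cauda means of 32.1 and 28 RPKM, and Zmynd10 a corpus mean of 18.1 RPKM. The axonemal genes Tekt1 and Dnaic1, by contrast, had 4 and 22 reads over all libraries.

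Foxm1, the driver of mitotic genes, measured 0.193 and 0.16 RPKM in caput, 0.0213 and 0.0671 in corpus, with 0.0879 and 0.0515 in cauda. It was called only between caput and corpus (1.89 ± 0.66 log2, adjusted p = 0.0303), a call lost in 6 of 14 alternatives. These were DESeq2 (adjusted p = 0.116), removal of the length trend (0.0684), and leaving out the first caput, first corpus, first cauda or second cauda library (0.0644 to 0.225). Of 20 mitotic genes 3 were higher and 2 lower in caput than in cauda, where 33.9% and 33% of all genes were. Their median was 0.21 against 0.04 over all genes. The proliferation marker Mki67 was among the lower, at 0.0939 and 0.131 RPKM in caput and 0.461 and 0.469 in cauda (-2.11 ± 0.39 log2, adjusted p = 0.00108), so Foxm1 and Mki67 did not share a pattern. Cdc25b, a phosphatase that starts mitosis, was higher in caput (1.77 ± 0.4, adjusted p = 0.00334), as was the kinetochore gene Cenpf (1.08 ± 0.37, adjusted p = 0.0278). Foxs1 was uneven between libraries of a region, with 2 and 10 reads in caput, 6 and 9 in corpus, with 2 and 15 in cauda, and was called in no comparison (adjusted p between 0.291 and 0.875).

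The remaining members left little or no signal. Foxl2, the ovarian granulosa factor, had 24 reads and Foxl2os 36, and since strand was not used in counting, reads of the 2 loci could not be told apart by strand. The trace genes with 3 reads each were Foxf1a, Foxf2, Foxh1 and Foxr2. Foxd1 had 2 reads, and Foxd2, Foxd3, Foxe1, Foxe3 and Foxi3 had 1 each. The 8 without a read were Foxa2, Foxb1, Foxb2, Foxc2, Foxd4, Foxi2, Foxl1 and Foxr1. A count of 0 allows up to 3 reads over the 6 libraries, which is between 0.00606 and 0.0204 RPKM for these genes by their length. Foxi2 and Foxi3, the closest relatives of Foxi1, were thus among the genes with 0 and 1 reads where Foxi1 had 2595 to 81413 per library.

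The genes around FOXO signalling were followed as a list. Of 25 upstream genes (insulin and IGF1 receptors, PI3K, AKT, SGK and 14-3-3 genes) 23 were tested, and 11 were higher and 2 lower in caput than in cauda, with a median of 0.27. Akt1, the kinase that inactivates FOXO factors, was higher in caput by 1.35 ± 0.1 log2 (adjusted p = 1.78e-06) and Ywhaz, a 14-3-3 protein that holds them in the cytoplasm, by 1 ± 0.07 (adjusted p = 1.53e-06). Sgk1, a related kinase, went against them at 16.3 and 13.3 RPKM in caput, 61.4 and 63.5 in corpus, with 54 and 59.2 in cauda (-2 ± 0.1 against cauda, adjusted p = 1.67e-07). Of 25 target genes known from other tissues 21 were tested, and 10 were higher and 5 lower in caput than in cauda, median 0.85. Bbc3, a cell death gene, was higher by 3.56 ± 0.21 (adjusted p = 3.87e-07) and Fbxo32, a ubiquitin ligase gene of muscle wasting, by 2.79 ± 0.16 (adjusted p = 3.67e-07). Sod2, the mitochondrial superoxide dismutase, was lower at -2.66 ± 0.08 (adjusted p = 1.29e-08). Over all genes tested, 33.9% were called higher and 33% lower in caput than in cauda. The counts of both FOXO lists, and of every other gene or marker list given here for caput against cauda, are to be read against these shares. Of 14 tested partners of FOXP and FOXA factors 10 were higher in caput, median 0.46, among them the estrogen receptor gene Esr1 (2.61 ± 0.13, adjusted p = 1.27e-07), the corepressor gene Ctbp2 (1.69 ± 0.14, adjusted p = 5.16e-06) and the glucocorticoid receptor gene Nr3c1 (0.94 ± 0.1, adjusted p = 3.44e-05).

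Clear cell and basal cell markers were higher in caput, as were most expressed forkhead genes, and the summed principal cell markers were lower there. Of 15 tested Foxi1 targets and clear cell genes, 15 were higher in caput than in cauda, and their summed level was 7389.7 to 7581.8 CPM (read counts scaled to TMM-adjusted library size) in caput against 1216 to 1462.9 in cauda. The list of principal cell genes summed to 10147.6 to 10645.2 CPM in caput against 156820.2 to 167076.1 in cauda, with 7 of 16 table entries higher and 9 lower. That sum leans on Crisp1, with 1309076 and 1328081 cauda reads, and Cd52, with 1049015 and 979258. Among the 7 higher entries, Lcn8 and Cst11 had caput means of 956.4 and 443.7 RPKM against 0.9 and 0.365 in cauda. For basal cells 11 of 13 tested markers were called higher in caput than in cauda, and the list summed to 740 to 791.4 CPM against 191.6 to 240. Bcl2 had the most caput reads of the list, 9228 and 6656 against 214 and 286 in cauda, so the sum leans on it. Itga6 was highest in corpus, at a mean of 4.8 RPKM against 1.8 in caput. Krt5 and Trp63, which define basal cells, were present in every library. Sperm transcripts summed to 28.4 and 208 CPM in caput, 3.13 and 50.7 in corpus, with 32.4 and 81.1 in cauda. Phagocyte markers ranged from 16 to 34.5 CPM, lymphocyte markers from 1.47 to 18.5, endothelial markers from 8.66 to 145 and stromal markers from 159.9 to 654.5, and the endothelial Cdh5 had no read in 5 of 6 libraries. Endothelial sums ran highest in corpus, where Egfl7 measured 38.7 and 44.5 RPKM. Those sums lean on Egfl7, with 2032 and 2591 corpus reads, and no other endothelial marker had its highest mean there. Vwf and Plvap had higher means in caput, 1.58 and 1.54 RPKM against corpus means of 0.708 and 0.229. Stromal sums ran highest in caput, where Dcn measured 307.4 and 308.2 RPKM. Of the 12 stromal markers Dcn alone was called higher in caput than in cauda and 5 were lower (Col1a1, Col1a2, Col3a1, Lum and Tagln), with a median of -1.25. The part of these cells in the regional levels of forkhead genes was not tested.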

How the data were processed

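The authors deposited read counts per gene for each of the 6 libraries and a table of RPKM values, and the submitters' processing notes name STAR, HTSeq, edgeR and the build mm9; no source used here gives versions or the annotation. The deposited counts were made without strand, per the names of the deposited files, and went into the tests as they stand, without the rows that name no gene (33.1% to 38.6% of records had no unique position). The deposited RPKM values equal counts over the deposited length and a library size with 1 factor per library (0.774 to 1.39). Levels are these RPKM values, as the value of each library.

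The test was edgeR 4.0.16 in R 4.3.3 (filterByExpr, TMM, robust quasi-likelihood fit of all 6 libraries by region, 3 residual degrees of freedom). It was two-sided, with calls at an adjusted p (Benjamini-Hochberg) under 0.05. A check on simulated counts changed few genes, all in caput, with the same spread for every gene. It did not cover regional differences as wide as those in these libraries. The SE is the log2 fold change over the square root of F. Intervals are 95% and, for ratios of reads, cover counting error only. Of the 44 members 17 passed the filter, and the values of 1 trace member are not reported here. The count files list 37583 genes, and 37578 genes are in the RPKM table. Replicates differed beyond sampling noise (chi-square per degree of freedom 9.57 to 17.2). Foxj2, Foxm1, Foxo1, Foxp1 and Foxq1 share exon sequence with another annotated gene in GENCODE M21, so the assignment of reads there is uncertain. For Foxm1 and Foxp1 the other genes lie on the same strand, so strand would not tell them apart. The same holds for Foxj2 and the microRNA gene Mir7231.

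The rule for named genes gave library values for every expressed member, statistics for those called, and up to 3 called genes per list. Members, lists and tests were chosen with earlier results of these data known. Alternatives were DESeq2 1.42.0, limma 3.58.1 on log2(RPKM + 0.5) above a mean of 0.1 RPKM, other scalings and filters, a replicate block, and leaving out libraries.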

Additional observations from a re-analysis of the deposited data

How the results depend on the processing

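Of 17 forkhead genes tested, 12 were called for caput against cauda (66.9% of all genes), 2 for corpus against cauda (35.4%), 11 for caput against corpus (65%) and 12 for any region (75.1%), so the caput counts in either direction are near the share of all genes. By direction, 11 were higher and 1 lower in caput than in cauda (33.9% and 33% of all genes). Against corpus 10 were higher and 1 lower in caput (33.2% and 31.8%). Foxj1, Foxm1 and Foxo6 reached 10 reads only in caput libraries, so they passed the filter through the region where they were high. The counts by direction are therefore given as description. For corpus against cauda the count became 7 under library totals and 4 with no filter on low counts, and the cause was not tested. Leaving out 1 library at a time gave 8 to 12, 1 to 3, 9 to 10 and 10 to 13 genes in that order. Under library totals the direction turned for Foxn2 (0.03), Foxk2 (0.52) and Foxo3 (0.8) between caput and cauda and for Foxo3 (0.55) between caput and corpus. Values called in neither fit also changed sign, namely Foxo4 between caput and cauda (0.14), Foxk2 between caput and corpus (0.23), and Foxo3 (0.25), Foxc1 (0.06) and Foxs1 (0.01) between corpus and cauda. For caput against cauda 14 members were called, each higher in caput, in place of 11 higher and 1 lower, with 9501 and 2564 of all genes in place of 5363 and 5218. The labels number the libraries 1 and 2 in each region without saying that a number marks shared mice or a day; the deviations of same-numbered libraries correlated at 0.13 to 0.19 across genes. With the replicate block the counts were 11, 3, 12 and 12: Foxj1 was lost for caput against cauda, Foxn3 was gained for corpus against cauda (adjusted p = 0.0312 by edgeR) and Foxk2 for caput against corpus (0.0493). The count of expressed members was 12 at 0.5 RPKM, 9 at 2 RPKM and 10 when both libraries had to reach 1 RPKM. Members below about 10 reads in a region are limited by depth, and their folds rest on single reads.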
